A study of Mus musculus with 6 samples.

Results

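The genes described here are 10 BCL2 family and p53 target genes, chosen by gene symbol in the array's platform annotation: Bcl2, Bcl2l1, Mcl1, Bax, Bak1, Bcl2l11, Bad, Bbc3, Bid and Cdkn1a. Of these, 9 were each read by 1 or more probe sets that are listed with a single gene, 30 probe sets in all, among 18193 genes and 45037 probe sets of the series. Bax was not analysed here. The main value of a gene is that of its probe set with the highest average across the 6 arrays.

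RNA came from pancreatic islets isolated from male CD1 mice aged 8 weeks and rested in culture overnight. In the first group, 3 samples received 200 uM CMPF for 24 hours; CMPF is a furan-containing fatty acid metabolite that circulates in blood. In the second, 3 samples received the vehicle, 0.1% ethanol, for the same time. Each sample was hybridised to an Affymetrix 3' expression array, and the values are log2 RMA signals, on which 1 unit is a doubling. The labels do not say whether the numbered samples of a group came from separate animals or preparations. The p-values therefore set each difference against the spread of these samples only, and that spread may be technical.

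Mitochondrial apoptosis is governed by the balance between members of the BCL2 family. Bcl2, Bcl2l1 (BCL-XL) and Mcl1 encode guardians that hold the pore-forming effectors, BAK1 and BAX, in check; the BH3-only proteins, here BIM (Bcl2l11), BAD, PUMA (Bbc3) and BID, neutralise the guardians or activate the effectors. The transcription factor p53 induces Bbc3, Bax and, outside the family, Cdkn1a, whose product p21 inhibits cyclin-dependent kinases. In beta cells this pathway is studied because chronic lipid and glucose excess can kill them, and it is controlled in large part after transcription, by protein binding, cleavage and phosphorylation that an RNA array does not read.

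The series was quiet as a whole. Limma called 0 of 18193 genes at an adjusted p under 0.05, which is 0% of genes, with and without the replicate number as a block, and 0 of 9 members; without the block 205 genes had an unadjusted p under 0.05 and with it 692 did. Arrays of the same replicate number deviated together from their group means (correlations across genes between 0.488 and 0.638). They were therefore treated as pairs, which the labels do not state. Below, a pair is the CMPF and the vehicle array of 1 number, and each difference is CMPF minus vehicle. The mean of 9 beta cell markers lay between 10.85 and 11.45 on the CMPF arrays and between 10.95 and 11.38 on the vehicle arrays, bright on all 6.

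No member passed the test between CMPF and vehicle islets. The differences of the 9 main probe sets ran from -0.072 for Mcl1 to 0.15 for Cdkn1a, with a median of 0.065 against 0.0018 over all genes. The difference was above 0 for 6 members and below 0 for 3, where 50.7% of all genes lay above 0. The groups overlapped for all 9 members, while 4.52% of all genes had groups that did not overlap. Bcl2l1 and Bbc3 were higher with CMPF in all 3 pairs, 2 of 9 members where 11.8% of all genes were; 0 members were lower in all 3, where 11.1% were. Each member had an adjusted limma p of 0.99995, and the smallest unadjusted limma p was 0.248, for Bbc3 (0.157 with the block). Without any filter on dim genes all 9 members stayed in the test, and 6 of them had a mean over the arrays at or above the median of all genes.

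**Figure D1:**
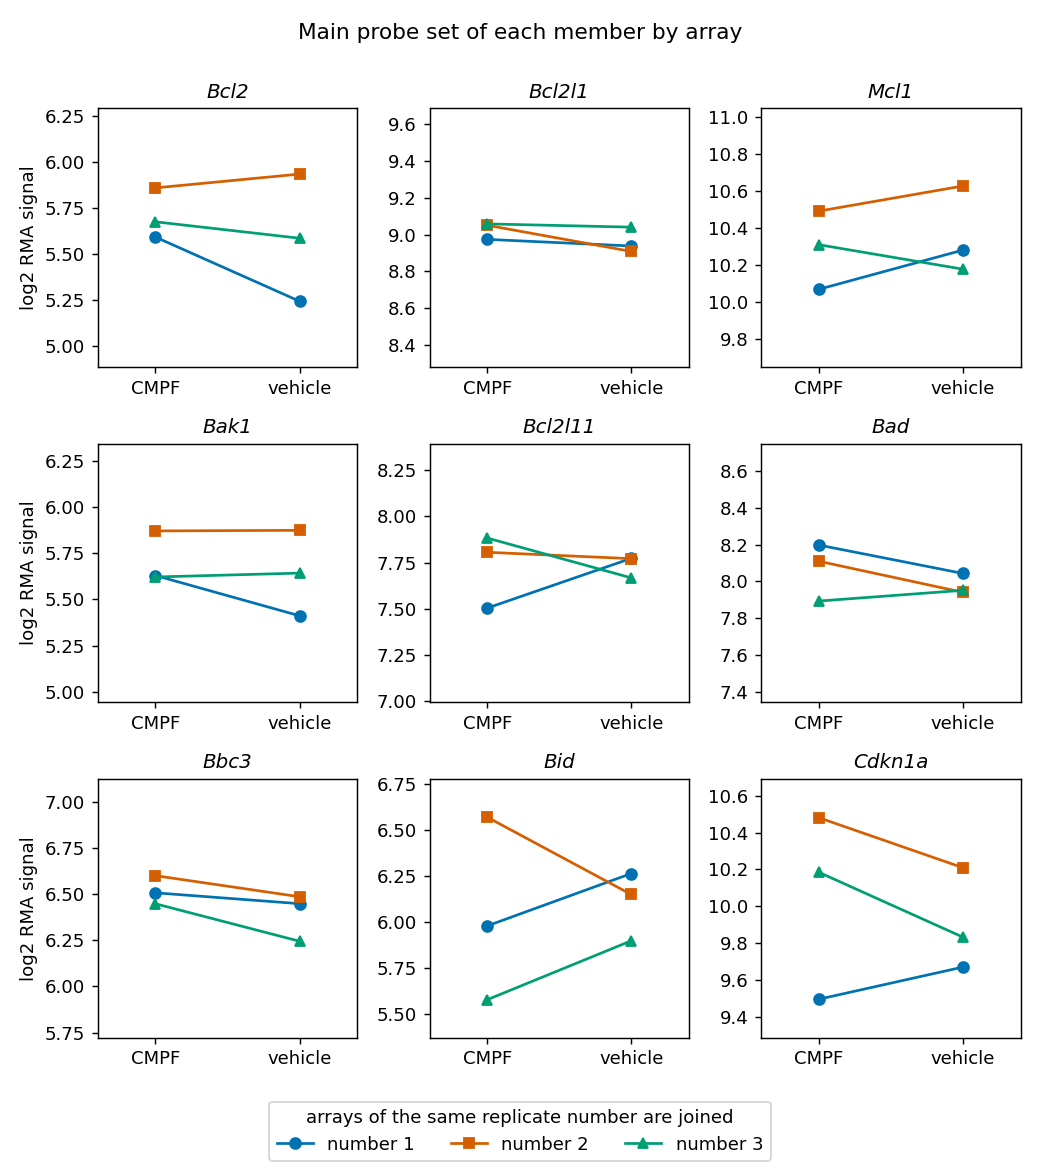
Log2 RMA signal of the main probe set of each of the 9 members on the 3 CMPF and 3 vehicle arrays, with lines joining arrays of the same replicate number and every panel spanning the same number of log2 units. In every panel the CMPF and vehicle points overlap, and for Bcl2, Mcl1, Bak1, Bbc3 and Cdkn1a the array numbered 2 is the highest in both groups.

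Among the guardians, Bcl2l1 varied least. Its main probe set read 8.97, 9.05 and 9.06 on CMPF arrays 1, 2 and 3, against 8.94, 8.91 and 9.04 on vehicle arrays 1, 2 and 3. The lowest CMPF value lay below the highest vehicle value, so the groups overlapped although each pair was higher with CMPF. The difference was 0.065 (SE 0.084; 95% interval from -0.13 to 0.26). The other Bcl2l1 probe sets, all dimmer, differed by 0.16, -0.044 and 0.014.

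Bcl2, the founding member of the family, read 5.59, 5.86 and 5.67 on CMPF arrays 1, 2 and 3, against 5.25, 5.93 and 5.59 on vehicle arrays 1, 2 and 3. Vehicle arrays spread more widely (SD 0.344, n = 3) than CMPF arrays (SD 0.136, n = 3), with vehicle array 1 the lowest of the 6. The difference of 0.12 (SE 0.176; 95% interval from -0.29 to 0.53) was largest in pair 1, at 0.35, and was -0.075 in pair 2. Without vehicle array 1 it was -0.051. The other Bcl2 probe sets differed by 0.074, -0.089, 0.12 and 0.14, in order of falling brightness. Those at 0.12 and 0.14 lay at percentiles 22 and 13.9 of brightness among all probe sets. The probes of the dimmest can cross-match other sequences.

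Mcl1, whose protein is short-lived and must be made continually, read 10.07, 10.49 and 10.31 with CMPF, against 10.28, 10.63 and 10.18 with vehicle, in the order of the numbers. Pairs 1 and 2 were lower with CMPF, by differences of -0.21 and -0.14, and pair 3 was higher by 0.13. The mean difference was -0.072 (SE 0.156; 95% interval from -0.44 to 0.29). All 6 Mcl1 probe sets showed this pattern, negative in pairs 1 and 2 and positive in pair 3, with mean differences from -0.11 to -0.0085. They read the same RNA samples and are not replicates, and some of them have probes that can cross-match other sequences.

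Bak1, the effector, had 5.63, 5.87 and 5.62 with CMPF on arrays 1, 2 and 3, and 5.41, 5.87 and 5.64 with vehicle. Pair 1 differed by 0.22, and pairs 2 and 3 by -0.0032 and -0.021. The mean difference was 0.065 (SE 0.139; 95% interval from -0.26 to 0.39). The second Bak1 probe set, of the type that can match more than 1 transcript, gave other values. It read 4.59, 4.48 and 4.26 with CMPF and 4.27, 3.92 and 4.16 with vehicle. All 3 pairs were higher with CMPF, but CMPF array 3 lay just below vehicle array 1, so the groups overlapped. Its difference of 0.33 (SE 0.131) had an unadjusted limma p of 0.036 and an adjusted limma p of 0.99996 over all probe sets. Without the block it was 1 of 30 probe sets with an unadjusted p under 0.05, where 1.51% of all probe sets had one. With the block 2 of the 30 had one, this probe set and a dim one of Bid, where 3.75% of all probe sets did.

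The BH3-only genes showed no common direction on their main probe sets. With probe set means each difference was positive, at 0.11 for Bcl2l11, 0.03 for Bad, 0.13 for Bbc3 and 0.092 for Bid, and limma called none. These means count dim probe sets equally, and for Bbc3 the mean is its main value again. The other Bid probe sets lay at percentiles 34.8 and 9 of brightness among all probe sets. Bbc3, which encodes PUMA and is read by a single probe set, was the steadiest BH3-only gene. It read 6.51, 6.60 and 6.45 with CMPF on arrays 1, 2 and 3, against 6.45, 6.49 and 6.24 with vehicle. Each pair was higher with CMPF, by 0.059, 0.11 and 0.20, and the groups met at CMPF array 3 and vehicle arrays 1 and 2. The mean difference was 0.13 (SE 0.100; 95% interval from -0.11 to 0.36).

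Bcl2l11, which encodes BIM, an activator made from several splice forms, read 7.50, 7.81 and 7.88 with CMPF and 7.77, 7.77 and 7.67 with vehicle. Vehicle arrays lay close together while CMPF array 1 was the lowest and CMPF array 3 the highest of the 6. The main probe set differed by -0.0062 (SE 0.118; 95% interval from -0.28 to 0.27). Its other 4 probe sets had differences between 0.084 and 0.23, and 2 of them were higher in all 3 pairs; the mean over the gene's 5 probe sets differed by 0.11. The sign of the Bcl2l11 difference therefore depended on the probe set, and it also turned with a second quantile normalization (0.011) and with array weights (0.018).

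Bad, whose protein is held inactive by phosphorylation, read 8.20, 8.11 and 7.89 with CMPF, against 8.04, 7.94 and 7.95 with vehicle. Pairs 1 and 2 were higher with CMPF and pair 3 was lower, with a mean difference of 0.088 (SE 0.104; 95% interval from -0.16 to 0.33). The second Bad probe set differed by -0.029.

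Bid, which caspase cleavage turns into an activator of the effectors, was the least steady BH3-only gene. It read 5.98, 6.57 and 5.58 with CMPF and 6.26, 6.15 and 5.90 with vehicle. CMPF arrays 2 and 3 were the highest and the lowest of the 6, and the pairs differed by -0.28, 0.42 and -0.32. The mean difference was -0.061 (SE 0.239; 95% interval from -0.62 to 0.50). The other 2 Bid probe sets were higher with CMPF in all 3 pairs. On 1 of them, whose probes can cross-match other sequences, the groups did not overlap, with 3.02, 3.17 and 2.93 with CMPF against 2.78, 2.89 and 2.76 with vehicle and a difference of 0.23 (SE 0.100; adjusted limma p of 0.99996). It lay at the 9th percentile of brightness among all probe sets, and 5.48% of all probe sets had groups that did not overlap.

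**Figure D2:**
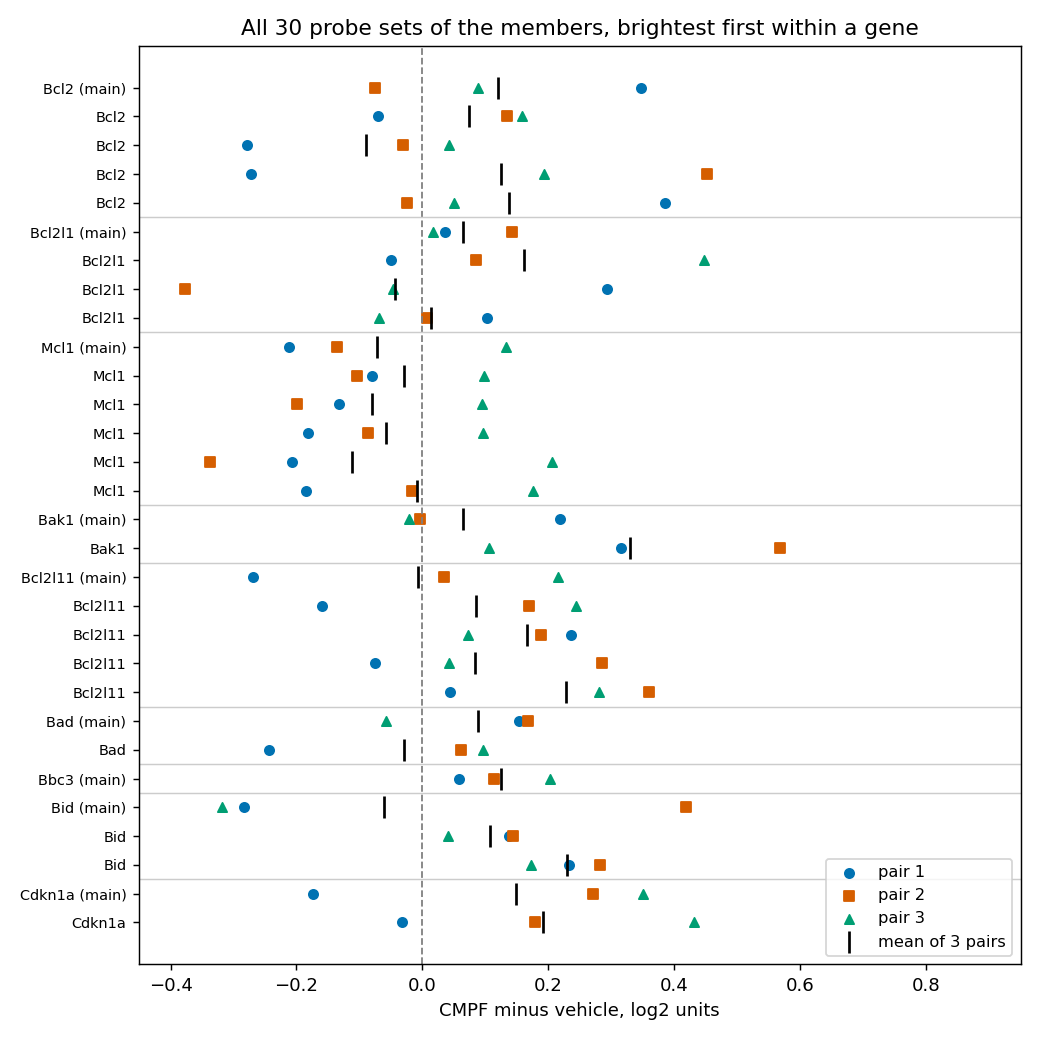
CMPF minus vehicle in log2 units for all 30 probe sets of the 9 members, 1 row a probe set, with a point for each pair and a bar for the mean of the 3 pairs. The 6 Mcl1 probe sets agree in sign pair by pair, while the probe sets of Bcl2, Bcl2l1, Bcl2l11, Bad and Bid lie on both sides of 0.

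Over all 30 probe sets, 19 had a difference above 0, where 51.9% of all probe sets did. There were 7 higher in all 3 pairs, where 12% of all probe sets were, and 0 lower in all 3, where 11% were. These 7 belonged to Bcl2l1, Bak1, Bcl2l11, Bbc3 and Bid, with 2 each for Bcl2l11 and Bid. Probe sets of 1 gene share their RNA, so the 30 are not independent readings. Limma called 0 of the 30, with and without the block.

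Cdkn1a, the p53 target that encodes the cell cycle inhibitor p21, had the largest difference of the main probe sets and, without the block, the widest interval. It read 9.50, 10.48 and 10.18 with CMPF on arrays 1, 2 and 3, against 9.67, 10.21 and 9.83 with vehicle. Both array 1 values were the lowest of their group and both array 2 values the highest. The pairs differed by -0.17, 0.27 and 0.35, and the mean difference was 0.15 (SE 0.257; 95% interval from -0.45 to 0.75). With the replicate block the SE was 0.119 and the interval ran from -0.14 to 0.44. The second Cdkn1a probe set had the same signs pair by pair and a difference of 0.19 (SE 0.190). Without CMPF array 2 the difference of the main probe set was -0.064, and without CMPF array 1 it was 0.43.

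**Figure D3:**
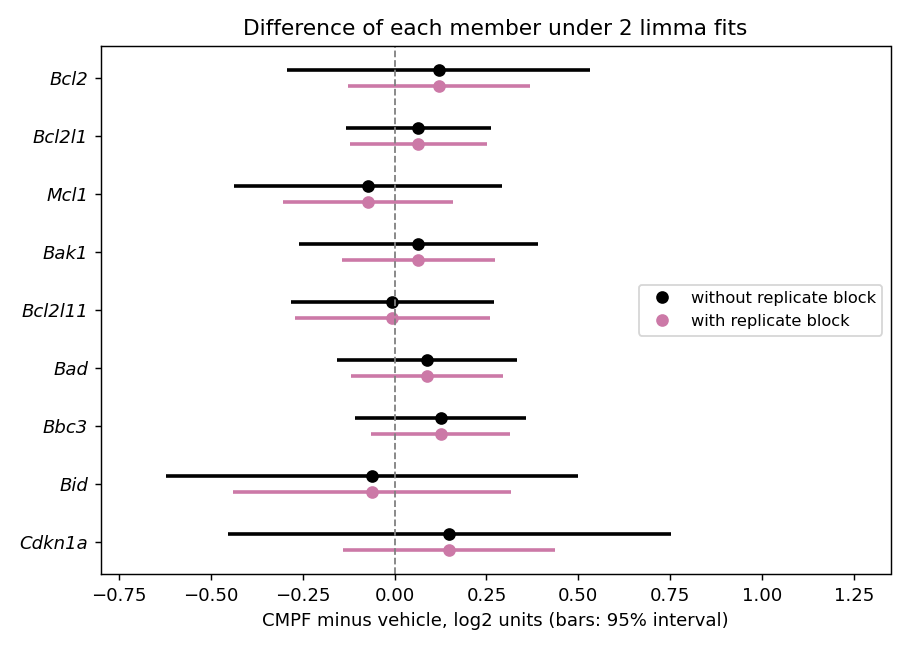
CMPF minus vehicle for each of the 9 members in log2 units, with 95% intervals from the limma fit without the replicate block (black) and with it (pink). All 18 intervals include 0, and the block narrows those of Cdkn1a, Bid and Bcl2 most.

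RefSeq promoter windows (GRCm38.p6, 250 bases before to 50 after an annotated start) were searched for the p53 half-site, the 10-base palindromic element of which p53 binds 2 copies. Of the 16 windows of the 9 members, 1 held a match, that of an upstream start of Cdkn1a, where 8.36% of all 32851 windows held at least 1. The Cdkn1a window held 2 matches with 12 bases between them, and 0.0731% of all windows held 2 matches at most 13 bases apart. Only strings that fit the pattern at every base were counted. The 10 bases directly after the second Cdkn1a match, left in lower case, miss the pattern at 1 base. The stretches below show it beside the windows of the other named p53 targets that held a match, Mdm2, Ccng1, Sesn1 and Gadd45a, 5′ to 3′ on the gene's strand with the matching bases in capitals.
Cdkn1a: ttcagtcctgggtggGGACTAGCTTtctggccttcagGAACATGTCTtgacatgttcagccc
Mdm2: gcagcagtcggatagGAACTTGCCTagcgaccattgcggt
Ccng1: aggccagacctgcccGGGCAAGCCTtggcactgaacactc
Sesn1: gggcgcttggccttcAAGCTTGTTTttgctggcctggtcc
Gadd45a: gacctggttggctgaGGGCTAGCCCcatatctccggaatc
They lie at chr17:29090891-29090952 on the plus strand for Cdkn1a, chr10:117710920-117710959 on the minus strand for Mdm2, chr11:40755447-40755486 on the minus strand for Ccng1, chr10:41887251-41887290 on the plus strand for Sesn1 and chr6:67037423-67037462 on the minus strand for Gadd45a. Of the other p53 targets named outside the members, Pidd1 had a window without a match, and Pmaip1 and Tnfrsf10b had no window. Trp53inp1 and Eda2r, named below, were not searched. A match is a string of letters and not evidence of binding in islets. The log2 differences of these genes were 0.15 for Cdkn1a, -0.012 for Mdm2, 0.024 for Ccng1, 0.12 for Sesn1 and -0.15 for Gadd45a, and limma called none of them.

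For all 9 members the range of the 3 pair means exceeded the size of the CMPF difference, as it did for 87.5% of all genes. The median of that range was 0.352 for the members and 0.21 for all genes. It was 0.76 for Cdkn1a and 0.62 for Bid, against 0.093 for Bcl2l1. Bcl2, Mcl1, Bak1, Bbc3 and Cdkn1a had their highest value on the array numbered 2 in both groups, 5 of 9 members where 19.8% of all genes did.

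The arrays also differed in exocrine RNA, which islet isolation carries over from the surrounding tissue. The mean log2 level of 17 acinar markers was 11.40, 12.06 and 11.09 on CMPF arrays 1, 2 and 3, against 11.14, 12.04 and 10.25 on vehicle arrays 1, 2 and 3, so it too was highest on the arrays numbered 2. That of 8 duct markers was 8.785, 9.488 and 9.031 with CMPF against 8.851, 9.444 and 8.731 with vehicle, also highest there. Of the acinar markers 16 had a difference above 0 and 11 were higher in all 3 pairs, with a median difference of 0.43. An unadjusted limma p under 0.05 with the block was found for 8 of them. Over all genes 50.7% lay above 0, 11.8% were higher in all 3 pairs and 3.8% had such a p with the block. The median difference of 11 endothelial markers was 0.19, with 10 above 0, 5 higher in all 3 pairs and 5 with an unadjusted limma p under 0.05 with the block, and their mean level was 5.72, 6.31 and 6.41 with CMPF against 5.72, 6.02 and 6.16 with vehicle. The median difference of 11 stellate cell markers was -0.23, with 1 above 0 and 10 below, and 0 higher or lower in all 3 pairs. None of them had an unadjusted limma p under 0.05 with the block. Their mean level was 8.41, 8.45 and 9.65 with CMPF against 8.84, 9.04 and 9.35 with vehicle. In bulk islets, fewer cells of a type and less RNA per cell cannot be told apart, and the part of these cells in the members' values was not tested. The 3' minus 5' signal of the Gapdh control, a measure of RNA integrity, was 0.0171, 0.0166 and -0.0162 with CMPF against -0.0267, -0.0894 and -0.0452 with vehicle. That of the Actb control was 0.841, 0.741 and 0.761 with CMPF against 0.829, 0.703 and 0.809 with vehicle, so the groups overlapped for Actb and not for Gapdh; their part was not tested either.

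The other genes of the pathway were described by lists, and limma called 0 genes in each of them with and without the block. Of 16 other BCL2 family genes 12 were measured, with a median difference of -0.017, 4 above 0 and 8 below, and 0 higher or lower in all 3 pairs. Pmaip1, which encodes the p53-induced BH3-only protein NOXA, had 5.36, 7.06 and 5.85 with CMPF against 6.15, 7.15 and 5.57 with vehicle. Array 2 was again the highest of each group, and the difference of -0.20 had an SE of 0.512. Bcl2l2 (BCL-W), a further guardian, differed by -0.012 (SE 0.115). The others with the smallest p were Bcl2l14 at 0.16 (SE 0.129), Bcl2l13 at -0.081 (SE 0.101) and Bcl2l15 at 0.064 (SE 0.155).

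Of caspases, inhibitors of apoptosis and mitochondrial death factors 21 genes were measured. Their median difference was -0.037, with 4 above 0 and 17 below, where 50.7% of all genes lay above 0, and 0 were higher and 1 lower in all 3 pairs. That gene was Birc3, an inhibitor of apoptosis, named here after its values were seen, at -0.12 (SE 0.275). Birc5, survivin, a mitotic gene as well as an apoptosis inhibitor, differed by -0.35 (SE 0.363), Cflar, which blocks caspase-8 activation, by -0.12 (SE 0.106), Birc2 by -0.086 (SE 0.091) and Dffa, the inhibitor of the caspase-activated nuclease, by 0.12 (SE 0.104).

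Among 27 measured p53 targets outside the members, 9 were higher in all 3 pairs and 1 was lower, where 11.8% of all genes were higher and 11.1% lower. Their median difference was 0.042, with 19 above 0 and 8 below, and none had an unadjusted limma p under 0.05 without the block, where 1.13% of all genes did. Tnfrsf10b, the mouse TRAIL receptor, read 4.65, 4.51 and 4.52 with CMPF against 4.46, 4.44 and 4.32 with vehicle. Its groups did not overlap, as was so for 2 of the 27 targets, where 4.52% of all genes had groups that did not overlap. The Tnfrsf10b difference was 0.15 (SE 0.090), at a brightness percentile of 24.3 among all genes. Pidd1, a p53-induced death domain protein, had 5.93, 5.91 and 5.96 with CMPF against 5.76, 5.83 and 5.86 with vehicle, also without overlap, and a difference of 0.12 (SE 0.080). Gadd45a, a stress-induced gene of growth arrest and DNA repair, differed by -0.15 (SE 0.112), and Sesn1, a stress-induced regulator of growth signalling, by 0.12 (SE 0.097).

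Trp53inp1 and Eda2r, which were chosen after their values were seen, were the 2 of these targets with an unadjusted limma p under 0.05 with the block, where 3.8% of all genes had one. Trp53inp1, a p53-induced nuclear protein, read 10.50, 11.30 and 10.10 with CMPF against 10.30, 11.13 and 9.78 with vehicle, and the difference of 0.23 had an SE of 0.397 without the block and 0.078 with it. Eda2r, a receptor of the TNF family, read 4.72, 5.50 and 4.33 with CMPF against 4.32, 5.22 and 4.12 with vehicle, a difference of 0.30 (SE 0.366 without the block and 0.080 with it). Both had an adjusted limma p of 0.979 with the block. On both genes the arrays ran in the order 2, 1, 3 within each group, as the acinar marker mean did. The array numbered 2 was the highest in both groups for 12 of the 27 targets, where it was for 19.8% of all genes. It was so for 15 of the 17 acinar markers and 5 of the 8 duct markers. The part of exocrine RNA in the values of these targets was not tested.

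The p53 paralogues Trp63 and Trp73 and regulators of p53 together had a median difference of -0.018 over 14 measured genes, with 1 higher and 2 lower in all 3 pairs. The 1 higher was Cdkn2a, at a brightness percentile of 14.4. It also counts among the inhibitors of cyclin-dependent kinases below. Hipk2, a kinase that phosphorylates p53, read 9.18, 9.20 and 9.10 with CMPF against 9.39, 9.48 and 9.19 with vehicle, lower in each pair and overlapping only at CMPF array 2 and vehicle array 3, with a difference of -0.19 (SE 0.102). Chek1, a DNA damage checkpoint kinase, differed by 0.20 (SE 0.156), and Sirt1, a deacetylase that acts on p53, by -0.17 (SE 0.155). Mdm2, at once the main p53 ubiquitin ligase and a p53 target, read 8.27, 8.60 and 8.37 with CMPF against 8.43, 8.44 and 8.40 with vehicle, a difference of -0.012 (SE 0.106; 95% interval from -0.26 to 0.24). The 6 other inhibitors of cyclin-dependent kinases had a median of -0.018, with 2 higher and 1 lower in all 3 pairs; Cdkn2b differed by 0.15 (SE 0.149), Cdkn2a by 0.16 (SE 0.100), Cdkn2d by -0.12 (SE 0.176) and Cdkn1b by -0.13 (SE 0.209).

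**Figure D4:**
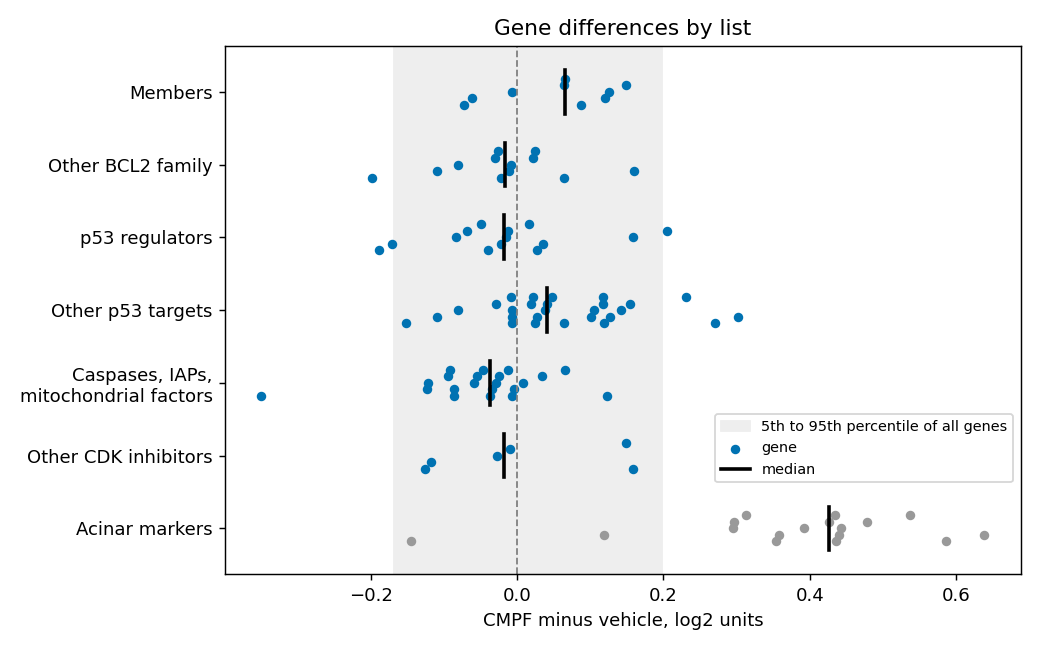
CMPF minus vehicle in log2 units for each gene of the members, of 5 lists of related genes and of the acinar markers, with the median of each list as a black bar and the 5th to 95th percentiles of all genes, -0.169 to 0.198, shaded. All 9 members lie inside the shaded range, and most acinar markers lie to its right.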

How the data were processed

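Per the submitters' processing notes, the authors deposited log2 signals computed by RMA with Affymetrix Expression Console 1.1. RMA subtracts background, gives all arrays 1 distribution and summarises each probe set, so differences in total signal are lost and those of dim genes shrink. There is no detection call, so low signal and no expression look alike. The small number of arrays limits the precision. No 2 arrays held identical values. Of 45101 probe sets the 64 controls were left out, and 34945 were listed with 1 gene, 932 with several and 9160 with none. CMPF was compared with vehicle by lmFit and eBayes in limma 3.58.1 (R 4.3.3) in two-sided tests. The main fit had no replicate block. P-values were adjusted by Benjamini-Hochberg across the 18193 genes, or across the 45037 probe sets for values of single probe sets, with a threshold of 0.05.

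The members and gene lists were chosen with earlier results of these data known. Named genes are the members, up to 4 genes of smallest p in each list, and genes fixed by name (Mdm2, Ccng1, Pmaip1 and Bcl2l2; a pair of further names in that rule was not analysed here). Lists of cell type markers are given by level or median where they bear on a member. Deviations of arrays with different numbers in different groups correlated between -0.555 and 0.0885, against 0.488 to 0.638 for the same number. Deviations were taken from the group means, so these ranges are not independent of each other. The pairing comes from this check, not from the labels. Promoter sequences are from RefSeq (GRCm38.p6), matched by symbol for 9 of 9 measured members. Alternatives were a replicate block, probe set means, filters on dim genes, other normalizations, array weights, and leaving out arrays or pairs.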

Additional observations from a re-analysis of the deposited data

Results flagged for a closer look

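The control probe sets for Gapdh, which enter no comparison of the genes, had a 3' minus 5' signal that averaged 0.0596 log2 units more on CMPF than on vehicle arrays, with no overlap between the groups. For the Actb controls the same measure overlapped, at 0.841, 0.741 and 0.761 on CMPF arrays against 0.829, 0.703 and 0.809 on vehicle arrays.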

How the results depend on the processing

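Limma called 0 genes and 0 members under each alternative tried, and 0 of the 30 probe sets under those run on probe sets, the replicate block among them (0 calls; smallest adjusted p = 0.979 for genes). The block changed no call. Under no alternative did a member reach an unadjusted p under 0.05. With probe set means the differences of Bcl2l11 and Bid turned positive (0.11 and 0.092), and that of Bcl2l11 did so with a second quantile normalization (0.011) and array weights (0.018); the cause was not tested. With 1 array left out, the median of the members ran from -0.017 (without CMPF array 2) to 0.11 (without CMPF array 3), against 0.065, and it was 0.018 without vehicle array 1. Bcl2 ran from -0.051 to 0.29, Mcl1 from -0.17 to 0.061, Bak1 from -0.051 to 0.18, Bcl2l11 from -0.082 to 0.11, Bid from -0.32 to 0.17 and Cdkn1a from -0.064 to 0.43. Bcl2l1 (0.038 to 0.10), Bad (0.023 to 0.17) and Bbc3 (0.051 to 0.17) stayed positive. With 1 pair left out, the median lay between 0.048 and 0.086, Bcl2l11 between -0.12 and 0.13, Bid between -0.30 and 0.067 and Bak1 between -0.012 and 0.11. The filter at the median of all genes left 6 members. The 3 members it dropped, Bcl2, Bak1 and Bid, were the dimmest, which limits what their values show.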
